A study of Mus musculus with 6 samples.

Results

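The 55 cell cycle and DNA replication genes described here were chosen by name, as 31 genes of S phase and 24 genes of mitosis, and were followed through 38887 gene identifiers counted in bone marrow neutrophils of naive and tumor-bearing mice. The replication genes covered origin licensing (8 genes), activation of the replicative helicase (4), DNA synthesis (8), nucleotide supply (5) and regulators of the passage from G1 into S phase (6). The mitosis genes covered the kinases, cyclins and transcription factors of mitotic entry (9), kinetochore and checkpoint (5), anaphase exit (2), spindle and midzone (6) and the proliferation markers Mki67 and Top2a (2). The question put to them was whether transcripts of dividing precursors changed with the tumor, and whether S phase and mitosis changed alike. All 55 had enough counts to be tested, among 12259 genes tested in all.

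Total RNA came from Ly6G+ cells, selected with beads from the bone marrow at a stated purity over 95%, of mice without a tumor (naive), mice at week 1 and mice at week 3 after injection of LL2 cells, a Lewis lung carcinoma line that carries luciferase and forms tumors in the lung. There were 2 libraries per group, numbered as replicate mice, and nothing states whether a library pooled animals. The labels give no strain, age or sex for these mice, and the methods name C57BL/6 mice. Libraries held between 11994158 and 14127919 counts, and p-values measure only the spread between these libraries. The cells carried neutrophil transcripts: 5 neutrophil markers (Ly6g, S100a8, S100a9, Csf3r and Itgam) had a summed level of 223709 to 304833 CPM in the 6 libraries, where CPM stands for reads of a gene relative to a TMM-corrected library total.

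Neutrophils arise in the bone marrow from dividing promyelocytes and myelocytes, and division ends when the cell becomes a metamyelocyte, so that band and segmented neutrophils no longer cycle. A cycling cell first licenses its origins by loading the MCM helicase, fires them in S phase with Cdc45 and the GINS complex, and copies its DNA with polymerases held by the clamp Pcna. Mitosis then runs under Cdk1 with its cyclins, the kinases Plk1 and Aurora, and the ubiquitin ligase that Cdc20 activates. Genes of S phase are classically driven by E2F factors. Genes of mitosis are controlled by the DREAM complex, a repressor, and driven by the MuvB complex with Mybl2 and Foxm1. Their promoters carry the CHR element (cell cycle genes homology region) and CCAAT boxes. In a bulk sample, fewer cycling cells and less of a transcript per cycling cell cannot be told apart.

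The promoter windows of both lists differed in these elements, a feature that the choice of genes did not use. RefSeq windows of 300 bases around the transcription start (assembly GRCm38.p6) were found for 45 of the 55 genes, with Mcm4, Foxm1, Ccne2, Pole, Aurkb, Gins1, Tpx2, Kif20a, Gins2 and Ccna2 not matched. An E2F site, searched on both strands as TTTGGCGC, TTTCCCGC, TTTCGCGC or TTTGCCGC, stood in 11 of 26 replication genes (42.3%), in 1 of 19 mitosis genes (5.26%) and in 2.6% of 27025 genes. The CHR, searched as TTTGAA, stood in 5 of 26 replication genes (19.2%), in 13 of 19 mitosis genes (68.4%) and in 20.2% of all genes. CCAAT stood in 61.5%, 84.2% and 41.1%. None of these motifs contains another on either strand, and a match describes letters in a window, not a site in use.

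**Figure D1:**
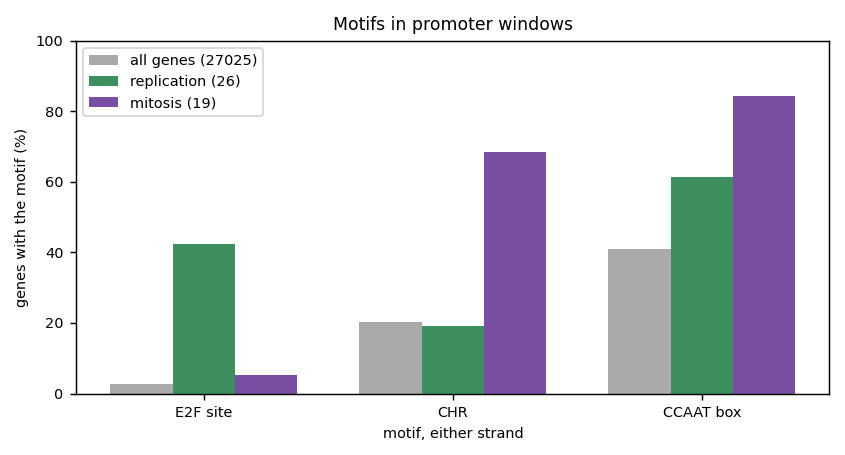
Share of genes (%) whose promoter window of 300 bases holds an E2F site, a CHR or a CCAAT box on either strand, for 27025 genes, 26 replication genes and 19 mitosis genes. The E2F bar is highest for replication (42.3%) and the CHR and CCAAT bars are highest for mitosis (68.4% and 84.2%).

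To show what these elements look like, the windows of 2 replication and 2 mitosis genes are printed in lower case with all E2F, CHR and CCAAT matches in capitals. They are, among genes with 1 annotated start, the 2 of each list that had the smallest adjusted p at week 3 and also held the list's element, so that their motifs were part of the choice and say nothing about the rest.
Rfc3, chr5:151651159-151651458, minus strand: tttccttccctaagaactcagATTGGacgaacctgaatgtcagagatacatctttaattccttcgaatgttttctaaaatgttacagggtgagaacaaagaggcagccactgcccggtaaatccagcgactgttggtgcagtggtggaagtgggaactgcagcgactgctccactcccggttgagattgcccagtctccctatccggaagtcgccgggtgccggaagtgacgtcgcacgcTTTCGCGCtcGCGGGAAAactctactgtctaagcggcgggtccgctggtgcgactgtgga
Cdt1, chr8:122567765-122568064, plus strand: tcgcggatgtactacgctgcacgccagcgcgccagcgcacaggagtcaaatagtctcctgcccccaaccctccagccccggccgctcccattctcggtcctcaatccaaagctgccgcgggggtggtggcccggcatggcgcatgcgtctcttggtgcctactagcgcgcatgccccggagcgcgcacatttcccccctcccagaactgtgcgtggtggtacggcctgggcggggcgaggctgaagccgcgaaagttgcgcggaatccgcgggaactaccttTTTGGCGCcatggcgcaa
Top2a, chr11:99024140-99024439, minus strand: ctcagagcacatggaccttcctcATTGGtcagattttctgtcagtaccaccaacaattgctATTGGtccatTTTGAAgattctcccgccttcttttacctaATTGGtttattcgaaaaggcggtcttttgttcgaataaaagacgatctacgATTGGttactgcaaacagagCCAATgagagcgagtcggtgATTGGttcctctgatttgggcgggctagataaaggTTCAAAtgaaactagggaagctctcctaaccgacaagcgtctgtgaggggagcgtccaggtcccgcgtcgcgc
Plk1, chr7:122159185-122159484, plus strand: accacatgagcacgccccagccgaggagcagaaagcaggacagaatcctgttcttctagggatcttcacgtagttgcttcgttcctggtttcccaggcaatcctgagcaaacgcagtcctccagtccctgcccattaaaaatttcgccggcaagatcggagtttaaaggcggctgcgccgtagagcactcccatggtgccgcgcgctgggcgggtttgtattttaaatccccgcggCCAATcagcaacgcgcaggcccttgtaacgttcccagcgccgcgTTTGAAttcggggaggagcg
Rfc3, a subunit of the clamp loader, held 2 E2F matches, and Cdt1, the licensing factor that brings the MCM helicase to origins, held 1. The window of Top2a, the topoisomerase that untangles chromosomes, held 2 CHR and 6 CCAAT matches. That of Plk1, polo-like kinase 1, held 1 CHR and 1 CCAAT match.

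In naive mice the cycle genes were unevenly expressed. Per kilobase of merged exons (RPKM), mitosis genes had a median of 6.52 and ranged from 0.386 for Bub1 to 52.0 for Plk1, and 11 of 24 lay above 10 RPKM. Replication genes had a median of 3.64 and ranged from 0.0581 for Pole to 26.6 for E2f2, and 4 of 31 lay above 10 RPKM. Pole, the catalytic subunit of the leading strand polymerase, and Gins1, a subunit of the GINS complex, were close to the detection floor of 3 counts. They had 5 and 8 counts in naive library 1, and 11 and 2 in naive library 2, where Gins1 was below the floor.

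Summed over all 55 genes, the naive libraries held 1995 and 1879 CPM, the week 1 libraries 1836 and 1986 CPM, and the week 3 libraries 1300 and 1340 CPM. Week 1 overlapped naive, and both week 3 libraries lay below the other 4. The mitosis genes summed to 1332 and 1258 CPM in naive mice, 1191 and 1341 CPM at week 1, and 759 and 825 CPM at week 3. The replication genes summed to 664 and 621 CPM, 645 and 644 CPM, and 542 and 515 CPM in the same order. The week 3 mean was thus 0.611 of the naive mean for mitosis and 0.822 for replication.

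The ratio of the replication to the mitosis sum was 0.499 and 0.493 in naive mice, 0.542 and 0.480 at week 1, and 0.714 and 0.624 at week 3. Both week 3 libraries had a higher ratio than the other 4. E2f2 made up much of the replication sum, and without it the ratios were 0.408 and 0.383, 0.439 and 0.388, and 0.503 and 0.463, which kept week 3 on top with a smaller gap. With 2 libraries a group no permutation test of the ratio between 2 groups could reach 0.05, so it is given as a description.

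**Figure D2:**
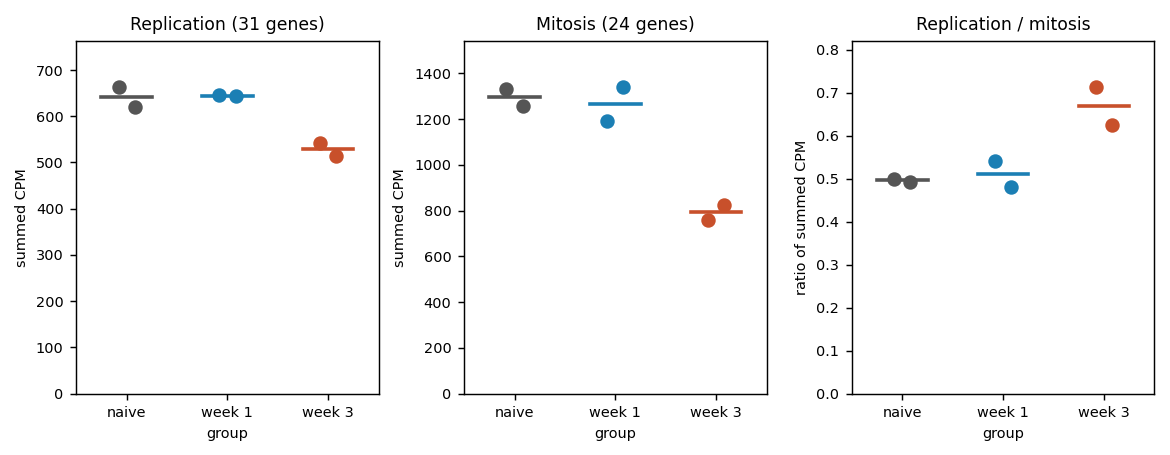
Summed CPM of the 31 replication genes and of the 24 mitosis genes, and the ratio of both sums, by group; each point is a library, each bar the mean of 2 libraries, and the axes start at 0. The week 3 points lie below the others in both sums, with a larger drop for mitosis, and above them in the ratio (0.714 and 0.624).

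Gene by gene, week 1 differed little from naive. Of the 55 genes, 4 rose and 4 fell at an adjusted p under 0.05 (edgeR quasi-likelihood test, adjusted over 12259 genes by Benjamini-Hochberg), where 4.23% of all genes tested rose and 3.76% fell. At an unadjusted p under 0.05 there were 12 of the 55, beside 2849 of all 12259 genes tested. The median log2 fold change was 0.01, as over all genes, with 0.05 for replication and -0.02 for mitosis. Fewer of all genes tested were called, in each direction, when a naive or week 1 library was left out. None of the 8 calls survived each library being left out in turn: Mybl2 lost its call without week 1 replicate 2 only, at an adjusted p of 0.0537.

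Mybl2, the MYB family factor that works with the MuvB complex, measured 134 and 125 CPM in naive mice, 198 and 199 CPM at week 1, and 121 and 122 CPM at week 3. Week 1 stood above all other libraries, and the week 1 change was 0.61 ± 0.11 (log2 fold change ± SE, adjusted p = 0.00564). Cdc45, which joins the MCM ring to form the active helicase, measured 16.6 and 16.6 CPM, 26.0 and 24.4 CPM, and 13.9 and 13.2 CPM, again highest at week 1 (0.60 ± 0.15, adjusted p = 0.0246). Tyms, the thymidylate synthase, measured 9.97 and 10.4 CPM, 18.1 and 15.8 CPM, and 10.8 and 11.6 CPM (0.74 ± 0.17, adjusted p = 0.0188). Ube2c, the ubiquitin-conjugating enzyme of the anaphase-promoting complex, rose by 0.42 ± 0.12 from 82.7 and 81.6 CPM to 106 and 114 CPM (adjusted p = 0.0471). In each of these genes the week 1 libraries did not overlap the naive ones.

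The genes that fell at week 1 were Top2a, Plk1, Nusap1 and Lig1. Top2a changed by -0.59 ± 0.13 (adjusted p = 0.0147), Plk1 by -0.56 ± 0.13 (adjusted p = 0.0200), Nusap1, a spindle microtubule binding protein, by -0.49 ± 0.13 (adjusted p = 0.0418), and Lig1, the ligase that seals Okazaki fragments, by -0.45 ± 0.13 (adjusted p = 0.0484). All 4 had lower means again at week 3, where the step from week 1 passed the test for Top2a and Plk1. Cdk1 (0.15 ± 0.12), Cdc20 (0.03 ± 0.14), Mki67 (-0.02 ± 0.15), Kif11 (0.00 ± 0.17), Bub1b (-0.30 ± 0.16), Pcna (0.18 ± 0.15), Mcm5 (0.09 ± 0.17), Rrm2 (-0.06 ± 0.15) and E2f1 (0.10 ± 0.15) did not pass the test. Pole had 1.61 ± 0.59 at an adjusted p of 0.110, on few counts.

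At week 3, 26 of the 55 genes fell against naive and 0 rose, where 9.42% of all genes tested fell and 12.0% rose. The median log2 fold change was -0.47, against 0.03 over all genes. Below 0 were 48 of 55 fold changes, beside 5783 of all 12259 genes tested. At an unadjusted p under 0.05 there were 35 genes in either direction, beside 4146 of all 12259 tested. Rrm1 and Gins1 among the 35 were above naive, Gins1 on few counts, and DESeq2 also called 0 higher. Without naive replicate 1 the number that fell was 17, and 13 of the 26 kept their call whichever library was left out (Mcm7, Lig1, Cdk1, Plk1, Foxm1, Bub1b, Birc5, Cdc20, Kif23, Nusap1, Prc1, Mki67 and Top2a). Over all genes tested, fewer were likewise called in each direction in every fit that left out a library. Of mitosis genes 16 of 24 fell (median -0.68), and of replication genes 10 of 31 (median -0.42). The medians thus differed by 0.26 on the log2 scale, a difference that was not tested. Every mitotic role had members that fell: 4 of 9 at mitotic entry, 4 of 5 at the kinetochore and checkpoint, both of anaphase exit, 4 of 6 of spindle and midzone and both proliferation markers. Among replication roles the numbers were 4 of 8 in origin licensing, 0 of 4 in helicase activation (where Gins1, the 1 gene at an unadjusted p under 0.05, was above naive), 2 of 8 in DNA synthesis, 2 of 5 in nucleotide supply and 2 of 6 G1/S regulators.

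**Figure D3:**
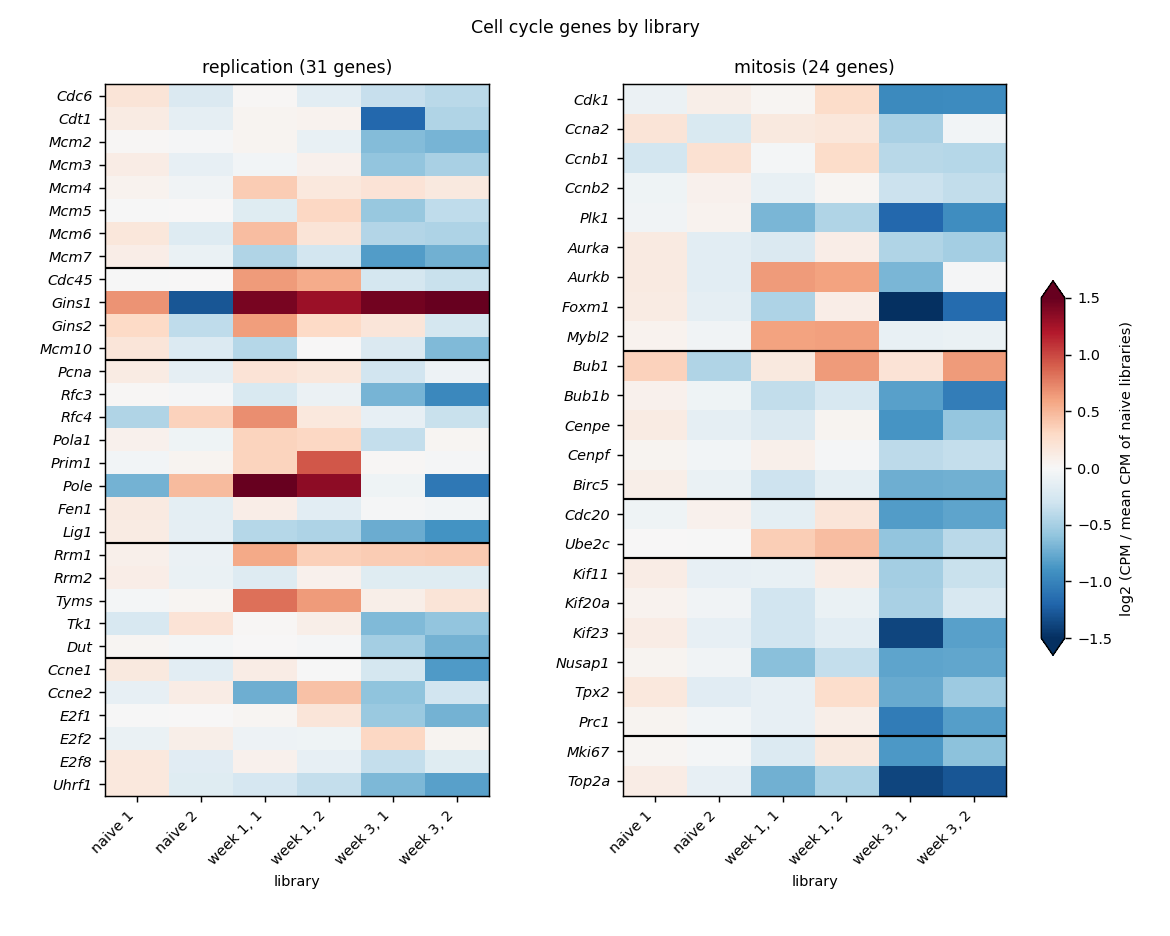
Each gene in each library as log2 of its CPM over the mean CPM of the naive libraries (colour, blue below and red above naive, the scale ending at 1.5 in both directions), with black lines between roles. The week 3 columns are mostly blue in mitosis, while replication holds rows that stay near naive, such as Fen1, Rrm2 and E2f2; the strong colours of Gins1 and Pole rest on few counts.

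Top2a measured 176 and 151 CPM in naive mice, 99.3 and 118 CPM at week 1, and 62.7 and 67.1 CPM at week 3. The groups did not overlap and stepped down from naive to week 3, where the change was -1.33 ± 0.13 (adjusted p = 1.57e-05), the smallest adjusted p of the 55 genes. Plk1 measured 110 and 119 CPM, 71.0 and 83.7 CPM, and 50.6 and 59.8 CPM in the same order, also without overlap (-1.05 ± 0.13 at week 3, adjusted p = 0.00013). Mki67, which coats mitotic chromosomes, measured 43.6 and 41.6 CPM, 37.0 and 47.3 CPM, and 23.4 and 27.8 CPM. Here week 1 spanned naive and only week 3 was low (-0.73 ± 0.15, adjusted p = 0.00388).

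Cdk1, the kinase that drives entry into mitosis, measured 98.5 and 112 CPM in naive mice, 107 and 127 CPM at week 1, and 54.4 and 54.8 CPM at week 3. Week 1 overlapped naive, and week 3 was lower than both (-0.94 ± 0.13, adjusted p = 0.000221). Foxm1, the forkhead factor of late cycle genes, measured 23.5 and 19.6 CPM, 15.6 and 23.0 CPM, and 7.21 and 9.69 CPM (-1.35 ± 0.22, adjusted p = 0.0007). Its week 3 libraries were both below all others. The cyclins moved less: Ccnb1 had -0.42 ± 0.17 and Ccnb2 -0.34 ± 0.15, with week 3 below naive in both, and Ccna2 had -0.25 ± 0.18 with overlap, and none passed the test. Counts were also assigned to a pseudogene copy, Ccnb2-ps, with 31 and 33 counts in naive mice, 102 and 132 at week 1 and 44 and 67 at week 3, so that the value of Ccnb2 is uncertain. Aurka fell (-0.48 ± 0.15, adjusted p = 0.0395), and Aurkb, at 4.11 and 3.36 CPM in naive mice and 2.33 and 3.69 CPM at week 3, did not pass.

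At the kinetochore, Bub1b, the checkpoint protein BubR1, measured 22.2 and 20.5 CPM in naive mice, 16.5 and 18.1 CPM at week 1, and 12.1 and 10.4 CPM at week 3. The 3 groups did not overlap, and the week 3 change was -0.93 ± 0.16 (adjusted p = 0.00128). Birc5 (survivin), a subunit of the chromosomal passenger complex, fell from 133 and 117 CPM to 75.2 and 75.8 CPM (-0.73 ± 0.12, adjusted p = 0.000934). Cenpe and Cenpf fell as well, by 0.73 and 0.38 on the log2 scale, and Bub1 stayed at 1.23 to 2.61 CPM in all libraries. Cdc20 measured 51.7 and 56.8 CPM, 49.1 and 61.8 CPM, and 30.3 and 31.4 CPM (-0.81 ± 0.14, adjusted p = 0.00116), with week 3 alone low.

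Of the spindle genes, Kif23, the kinesin of the central spindle, measured 98.7 and 83.3 CPM in naive mice, 74.3 and 81.6 CPM at week 1, and 35.1 and 51.9 CPM at week 3 (-1.07 ± 0.17, adjusted p = 0.000617). Prc1, which bundles midzone microtubules, fell from 28.9 and 27.2 CPM to 13.5 and 15.8 CPM (-0.93 ± 0.15, adjusted p = 0.000802). Nusap1 fell (-0.78 ± 0.14, adjusted p = 0.0012), and so did Tpx2 (adjusted p = 0.0204). Both week 3 libraries of these genes lay under the naive ones. Kif11, the motor that separates spindle poles, had week 3 libraries below naive but missed the threshold (-0.42 ± 0.17, adjusted p = 0.105), as did Kif20a.

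Replication genes covered a wide range at week 3, and 25 of 31 fold changes were below 0, beside 5783 of all 12259 genes tested. Lig1 measured 105 and 87.5 CPM in naive mice, 71.3 and 69.7 CPM at week 1, and 57.6 and 51.5 CPM at week 3, stepping down without overlap (-0.82 ± 0.13, adjusted p = 0.000618). Of the MCM helicase, Mcm7 fell (-0.77 ± 0.15), with Mcm2 (-0.67 ± 0.18) and Mcm3 (-0.54 ± 0.15). Mcm5 measured 26.9 and 27.1 CPM, 23.9 and 33.6 CPM, and 18.1 and 20.7 CPM and missed the threshold (-0.48 ± 0.17, adjusted p = 0.0656). Mcm6 had -0.46 ± 0.17, and Mcm4, at 32.5 and 31.2 CPM, was above both naive libraries (0.18 ± 0.14, adjusted p = 0.398).

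Pcna measured 26.7 and 22.3 CPM in naive mice, 28.3 and 27.5 CPM at week 1, and 20.1 and 23.2 CPM at week 3. Week 3 overlapped naive (-0.18 ± 0.15, adjusted p = 0.437). Rrm2, the small subunit of ribonucleotide reductase, measured 25.2 and 22.0 CPM, 20.7 and 24.7 CPM, and 20.8 and 20.8 CPM (-0.19 ± 0.15, adjusted p = 0.428), and Fen1, the flap endonuclease, had -0.03 ± 0.18. In contrast Dut, which removes dUTP, fell from 26.6 and 25.5 CPM to 18.2 and 15.9 CPM (-0.61 ± 0.14), and Rfc3 (-0.83 ± 0.20), Cdt1 (-0.77 ± 0.21) and Tk1 (-0.63 ± 0.21) fell too. Cdc45 had -0.29 ± 0.15 (adjusted p = 0.192). The remaining members of these roles (Cdc6, Gins1, Gins2, Mcm10, Rfc4, Pola1, Prim1, Pole, Rrm1 and Tyms) were not called.

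E2f1, the activating E2F factor, measured 19.7 and 20.0 CPM in naive mice, 20.2 and 22.4 CPM at week 1, and 13.5 and 12.2 CPM at week 3. Only week 3 was low (-0.63 ± 0.15, adjusted p = 0.0114). E2f2, the E2F gene with the highest RPKM of the 3 here, measured 121 and 138 CPM, 123 and 124 CPM, and 160 and 133 CPM, with week 3 overlapping naive (0.18 ± 0.13, adjusted p = 0.355). Uhrf1, which helps to copy DNA methylation to new strands, fell (-0.74 ± 0.17), while E2f8, Ccne1 and Ccne2 were not called. Mybl2 was near its naive level at week 3 (-0.10 ± 0.11, adjusted p = 0.573).

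**Figure D4:**
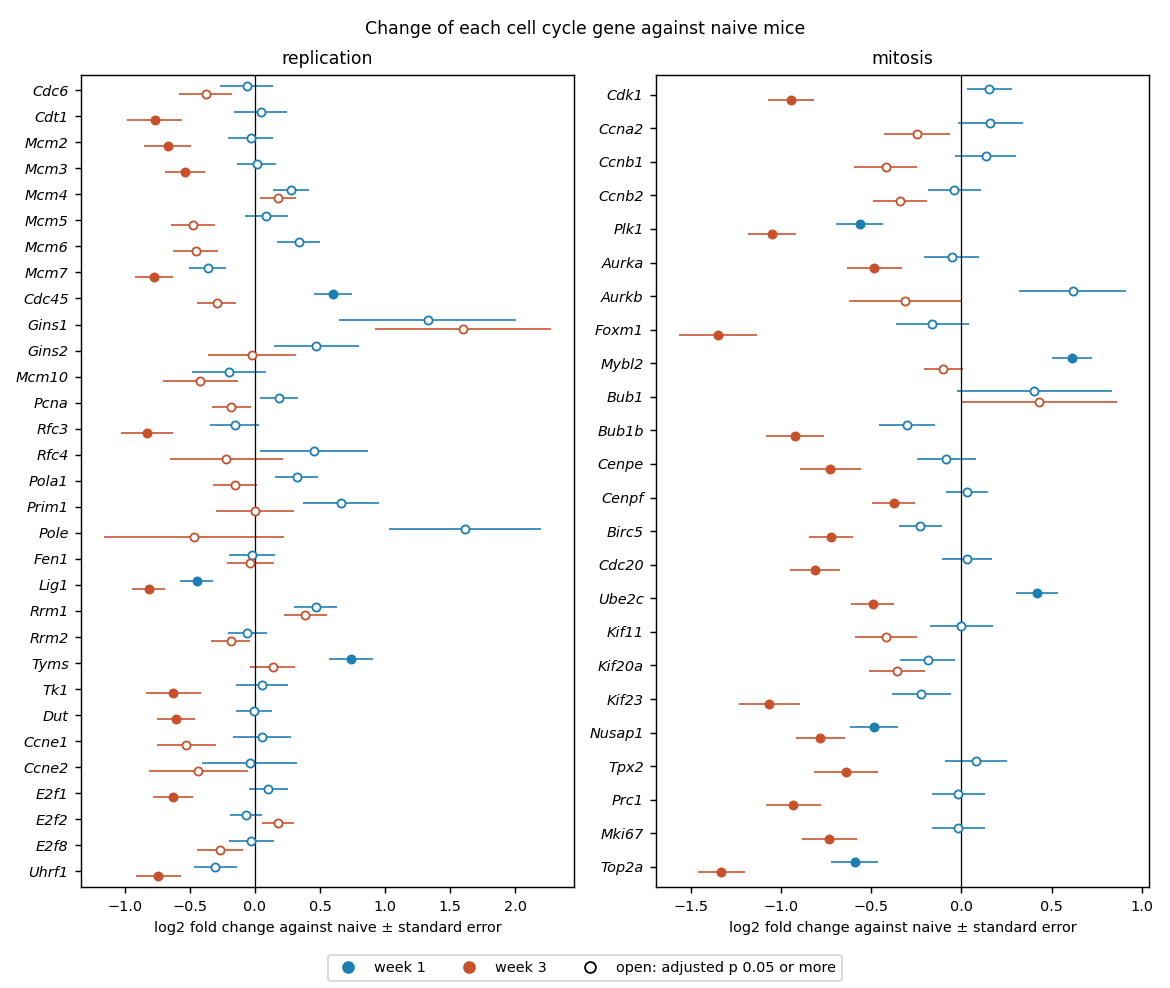
Log2 fold change of each gene against naive mice (horizontal axis, ± standard error from edgeR) at week 1 (blue) and week 3 (orange); filled points have an adjusted p under 0.05. Week 3 points of mitosis lie mostly left of 0 and are filled for 16 of 24 genes, against 10 of 31 in replication.

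Week 3 set directly against week 1 gave 29 genes that fell and 0 that rose, where 9.57% of all genes tested fell and 12.9% rose. The median was -0.55, against -0.02 over all genes, with -0.49 for replication (12 of 31 fell) and -0.63 for mitosis (17 of 24). The number was 14 without week 1 replicate 2 and 16 without week 3 replicate 1, and 11 genes kept their call in each of the 6 fits (Mcm6, Cdc45, E2f1, Cdk1, Foxm1, Mybl2, Cdc20, Ube2c, Kif23, Prc1 and Top2a). Fewer of all genes tested were also called, in each direction, when a week 1 or week 3 library was left out. At an unadjusted p under 0.05 there were 40 genes, beside 4302 of all 12259 tested, and DESeq2 also called 0 higher. Week 1 and week 3 were both set against the same naive libraries above. The smallest adjusted p were those of Cdk1 (-1.10 ± 0.13, adjusted p = 5.9e-05), Ube2c (-0.91 ± 0.12, adjusted p = 0.000149) and Mybl2 (-0.71 ± 0.11, adjusted p = 0.000468). Next were Cdc45 (-0.89 ± 0.15), Cdc20 (-0.84 ± 0.14), Prc1 (-0.92 ± 0.15), Top2a (-0.74 ± 0.13), Foxm1 (-1.19 ± 0.22), Kif23 (-0.84 ± 0.17) and E2f1 (-0.73 ± 0.15). Bub1b, Mki67 and Mcm5 fell as well (adjusted p = 0.0147, 0.00417 and 0.0304), and Pcna (-0.37 ± 0.15, adjusted p = 0.0957), Rrm2 (-0.13 ± 0.15) and Kif11 (-0.42 ± 0.17) did not pass. Pole fell on few counts and lost its call without any 1 of the 4 libraries compared.

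Other cell cycle genes, listed apart from the 55, were examined in the same fit. Over all genes tested, 9.42% fell and 12.0% rose at week 3 against naive, and 3.76% fell and 4.23% rose at week 1. Of 30 other mitosis genes tested, 14 fell at week 3 against naive and 0 rose, among them Cdca8 (-0.94 ± 0.13), Incenp (-0.79 ± 0.13) and Ckap2l (-1.09 ± 0.19). Cdca8 and Incenp encode partners of Birc5 in the passenger complex. Of 34 other replication genes 3 fell, near the share of all genes, and 1 rose, below that share. Pold1, the catalytic subunit of polymerase delta, changed by -1.16 ± 0.20, and Cdc7, the kinase that fires origins, by -1.22 ± 0.28. Rfc2 changed by 0.55 ± 0.13, a call lost without naive replicate 1 and without week 3 replicate 1. Of 17 cohesin and condensin genes 6 fell at week 3, with Smc2, Ncapd2 and Smc4 first, and 4 fell at week 1 (Smc1a, Stag2 and Stag1 first, each call lost without naive replicate 1 and without either week 1 library). This list summed to 820 and 737 CPM in naive mice, 574 and 628 CPM at week 1, and 589 and 625 CPM at week 3, so that it was already low at week 1, where the sum of the 55 genes overlapped naive.

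Among 9 G1 cyclins, CDKs and phosphatases, 3 fell and 1 rose at week 3 against naive, where 9.42% of all genes tested fell and 12.0% rose. Cdc25b, a phosphatase that activates Cdk1, measured 52.7 and 58.9 CPM in naive mice, 40.9 and 53.8 CPM at week 1, and 163 and 143 CPM at week 3 (1.46 ± 0.15, adjusted p = 1.85e-05). It was thus high at week 3, where Cdk1 itself was low. Ccnd2 and Cdc25a fell (-1.28 ± 0.18 and -0.86 ± 0.14). Of 16 cell cycle brakes tested 1 rose and 1 fell, below both shares of all genes. Cdkn2d, the CDK4 and CDK6 inhibitor p19, rose from 322 and 439 CPM to 750 and 701 CPM (0.93 ± 0.14, adjusted p = 0.000456), and Pkmyt1 fell.

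Genes of the granulocyte stages changed in different directions at week 3, where 9.42% of all genes tested fell against naive and 12.0% rose. The 6 primary granule genes, made by promyelocytes, summed to 75.2 and 70.3 CPM in naive mice, 75.4 and 118 CPM at week 1, and 285 and 392 CPM at week 3. All 6 rose at week 3, with Prtn3 at 3.23 ± 0.26 (adjusted p = 3.52e-06) and Mpo at 2.30 ± 0.24. Of 7 secondary granule genes, made by myelocytes, 5 fell, among them Camp (-1.04 ± 0.14), Chil3 and the factor Cebpe (-0.99 ± 0.12). The other 2 had fold changes above 0 (highest 0.49 on the log2 scale) and were not called. Of 5 tertiary granule genes 1 rose, and of 7 genes of segmented neutrophils 3 rose, with Csf2rb first (1.31 ± 0.16). Sums of cycle genes thus fell at week 3 beside a higher sum of promyelocyte genes and a lower sum of myelocyte genes. The part of stage composition in the cycle genes was not tested.

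Other marrow lineages that divide are B-cell precursors and erythroblasts. The 10 B-cell precursor genes summed to 52.5 and 40.5 CPM in naive mice, 51.5 and 40.5 CPM at week 1, and 12.95 and 11.4 CPM at week 3, and all 8 that could be tested fell, with Pax5 at -2.18 ± 0.28 and Cd79a at -2.15 ± 0.29. The 10 erythroblast genes summed to 1357 and 1212 CPM, 1319 and 1524 CPM, and 1360 and 588 CPM, with only week 3 library 2 low, and 1 of 10 fell (Klf1, -1.69 ± 0.46), beside 9.42% of all genes. Klf1 had -2.68 without week 3 replicate 1, and lost its call without naive replicate 1 (-1.35) and without week 3 replicate 2 (-1.10). Over the 6 fits that leave out a library, the median log2 fold change at week 3 against naive was -0.75 to -0.55 for mitosis genes. For replication genes it was -0.45 to -0.33. The part of B-cell precursors and of erythroblasts in the fall of cycle genes was not tested.

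**Figure D5:**
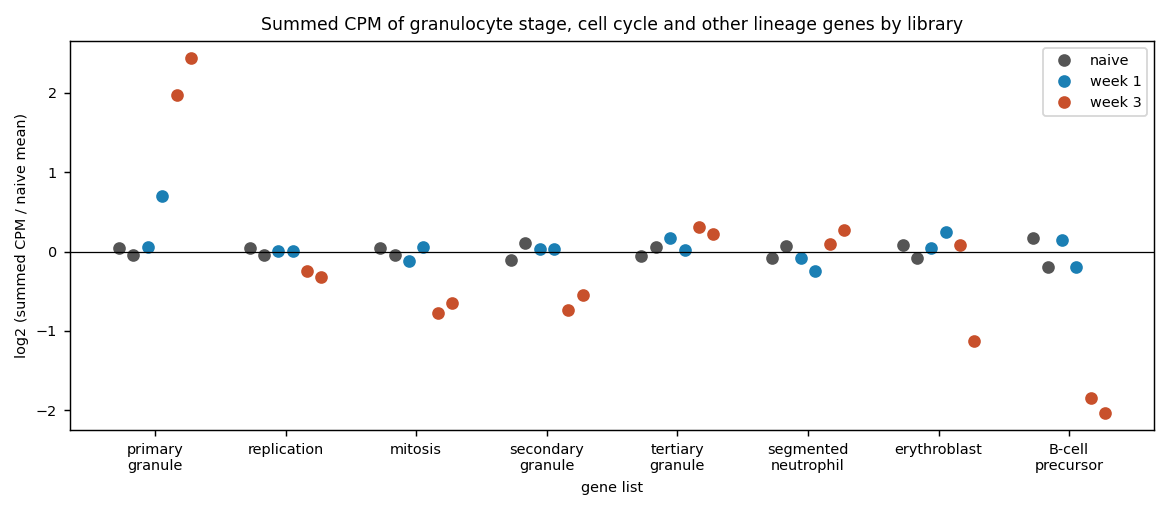
Summed CPM of granulocyte stage lists, the 2 cell cycle lists, erythroblast and B-cell precursor genes, as log2 over the naive mean; each point is a library. At week 3 the primary granule points lie above 0, the replication, mitosis, secondary granule and B-cell precursor points lie below 0, and the erythroblast points are split.

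Of the remaining lists, monocyte genes had 1 that rose and 2 that fell at week 3 (F13a1 at 2.39 ± 0.34, Cx3cr1 and Irf8, the last lost without naive replicate 1 and without week 3 replicate 2). Eosinophil, basophil and mast cell genes had 2 of 7 that fell, Mcpt8 and Cpa3. Cpa3 lost its call in each of the 6 fits without 1 library and in DESeq2 (adjusted p = 0.115). Mcpt8 (-1.26) lost it without either naive library and without week 3 replicate 1 (-0.63), and had -2.37 without week 3 replicate 2. Stem cell and megakaryocyte genes had 2 of 6 that fell (Itga2b, and Pf4, which lost its call in 3 of those fits), T and NK cell genes 0 of 2 (1 at an unadjusted p under 0.05), and the 1 epithelial gene tested, Cdh1, rose from 3.40 and 3.52 CPM to 17.0 and 5.84 CPM. Its change of 1.72 was 0.76 without week 3 replicate 1 (adjusted p = 0.268), and the call was also lost without either naive library. At week 1, Mcpt8, Cpa3 and Prg2 rose and Irf8 and Itga2b fell, and each call was lost without naive replicate 1 and without either week 1 library. Over all libraries the summed levels lay between 700.3 and 900.1 CPM for the monocyte list, 54.5 and 90.6 CPM for eosinophils, basophils and mast cells, 68.3 and 88.9 CPM for stem cells and megakaryocytes, 3.07 and 17.4 CPM for the epithelial list, and 2.61 and 7.61 CPM for T and NK cells. Beside the counts of these lists, 9.42% of all genes tested fell and 12.0% rose at week 3 against naive, and 3.76% fell and 4.23% rose at week 1. The part of these cells in the cycle genes was not tested.

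Of the 55 genes, 18 overlap another gene with counts in the annotation, most on the opposite strand, among them Mcm7, Lig1, Cdc20, Ube2c, Nusap1 and Prc1. Overlap was taken from gene start to gene end, and shared exon bases were not counted. No source used here says that counting used strand, so reads in exon bases that such a pair shares cannot be told apart. No member had counts identical to another gene.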

How the data were processed

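RNA-seq was made from 6 libraries of Ly6G+ bone marrow cells in 3 groups. The authors deposited expected counts per gene from RSEM as whole numbers, not scaled between libraries. The submitters' processing notes name RSEM 1.2.31, Bowtie2, DESeq2 and mm10, and the methods name another RSEM version. Read length is 75 bp in the labels and shorter in the methods, and a legend gives more samples per group than were analysed here.

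Symbols, positions and merged exon lengths came from GENCODE M21 (GRCm38), which matched 37570 of 38887 identifiers. RPKM here is CPM per kilobase of all exons merged, longer than any 1 transcript. Counts were rounded, filtered with filterByExpr (12259 genes), scaled by TMM (factors 0.9134 to 1.072) and tested with edgeR 4.0.16 (R 4.3.3, glmQLFTest), where a single model held all libraries and the group was the only factor. Called genes had a Benjamini-Hochberg adjusted p under 0.05 over all genes tested. A floor of 3 counts is 0.2 to 0.246 CPM and covers counting error only. Replicates differed by more than counting noise (chi-square per degree of freedom 10.2, 8.87 and 12.0).

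The members and lists were chosen with earlier results of these data known. Every member was eligible to be named, with statistics for up to 10 per direction and comparison with the smallest adjusted p and for 11 genes that stand for roles. Of other lists, up to 3 per role and comparison were taken by adjusted p. Members given values beyond this were chosen after their values were seen. Other alternatives were DESeq2 1.42.0, its size factors, library size alone, other filters, the groups compared alone, a replicate block and each library left out.

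The test was tried on simulated data in 3 versions. The first 2 missed the share of changed genes first required to be called, and the requirement was then limited to genes with higher counts, which the last version met. Genes with few counts may therefore go uncalled here.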

Additional observations from a re-analysis of the deposited data

Results flagged for a closer look

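The change from naive differed between week 1 and week 3 in 29 of the 55 genes, by the week 3 against week 1 contrast of the edgeR model, which tests that difference (adjusted p under 0.05). Each was lower at week 3, where 9.57% of all genes tested fell against week 1 and 12.9% rose. Only part of these calls held whichever library was left out. Log2 differences (week 3 minus week 1) follow. In origin licensing they were -0.82 for Cdt1, -0.64 for Mcm2, -0.55 for Mcm3, -0.56 for Mcm5 and -0.79 for Mcm6. In the other replication roles they were -0.89 for Cdc45, -0.67 for Rfc3, -2.08 for Pole, -0.60 for Tyms, -0.68 for Tk1, -0.60 for Dut and -0.73 for E2f1. At mitotic entry they were -1.10 for Cdk1, -0.55 for Ccnb1, -0.49 for Plk1, -0.93 for Aurkb, -1.19 for Foxm1 and -0.71 for Mybl2. At the kinetochore they were -0.62 for Bub1b, -0.64 for Cenpe, -0.41 for Cenpf and -0.50 for Birc5. In anaphase exit, spindle and the markers they were -0.84 for Cdc20, -0.91 for Ube2c, -0.84 for Kif23, -0.72 for Tpx2, -0.92 for Prc1, -0.72 for Mki67 and -0.74 for Top2a. In 5 of the 29 (Mcm6, Cdc45, E2f1, Mybl2 and Ube2c) both week 1 libraries lay above and both week 3 libraries below the naive ones. The 29 were chosen for a difference between the weeks, which favours such a pattern. Both weeks were set against the same naive libraries. Against naive, Ube2c alone of the 5 genes passed the test at both weeks, and its week 1 call did not hold whichever library was left out. E2f1 did not pass at week 1 (0.10 ± 0.15), Cdc45 and Mybl2 did not pass at week 3, and Mcm6 passed at neither week. The share of all genes with this pattern was not computed.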

How the results depend on the processing

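With library size alone in place of TMM, the median over all genes shifted to -0.11 at week 3 against naive and -0.22 against week 1, the replication medians were -0.57 and -0.70, the mitosis medians -0.83 and -0.83, and 2 genes fell at week 1. Of all 12259 genes tested, 263 fell at week 1 with library size alone. DESeq2 called 2 genes higher at week 1, and 22 and 20 lower at week 3 against naive and week 1. Over all genes it tested, 362 of 10867 were higher at week 1. At week 3 it called 890 of 11261 lower against naive and 778 of 11655 lower against week 1. Without a low-count filter and with a mean CPM of at least 1, the replication median of week 3 against week 1 was -0.52 and -0.54. Kif11 at week 1 changed sign to -0.023 with DESeq2, -0.020 with its size factors and -0.0029 with the replicate block, and Mki67 to 0.035 with library size alone; none of these passed the test. The cause of these changes was not tested. Over the 6 fits that leave out a library, genes higher at week 1 numbered 0 to 4 and lower 0 to 4, genes lower at week 3 17 to 26 against naive and 14 to 31 against week 1. The number called over all genes tested also varied between these fits. Median ranges were -0.75 to -0.55 for mitosis at week 3 against naive, 0.042 to 0.13 for replication at week 1, -0.45 to -0.33 for replication at week 3 against naive and -0.52 to -0.48 against week 1. The replication minus mitosis median at week 3 against naive ranged from 0.18 to 0.39. At week 1, log2 fold changes that turned sign in some of these fits ranged from -0.18 to 0.31 for Mcm5, -0.19 to 0.058 for Rrm2, -0.14 to 0.18 for Cdc20, -0.11 to 0.11 for Kif11 and -0.21 to 0.15 for Mki67. A fit that leaves 1 library in a group assumes that it varies like the others. Libraries are numbered as replicate mice within each group. Over the genes tested, same-numbered libraries deviated together only weakly (correlations 0.0206, 0.0297 and 0.032). Whether same-numbered libraries shared a batch was not tested. With the replicate block 3 genes rose and 3 fell at week 1, and 25 and 29 fell at week 3. Over all 12259 genes tested in that fit, 521 rose and 438 fell at week 1. At week 3, 1114 fell against naive and 1177 against week 1. Gins1, Pole, Bub1 and Rfc4, with few counts, had standard errors over 0.4, which limits what could be seen of them.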
